A study of Mus musculus with 8 samples.

Results

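Helper lineage transcription factors are the DNA-binding proteins that set which programme a CD4+ T cell follows. The 9 described here, Tbx21, Eomes, Gata3, Rora, Bcl6, Prdm1, Maf, Batf and Ahr, were taken by gene symbol from the 53465 Ensembl genes counted in each library. RNA was sequenced from cultured mouse regulatory T cells (Tregs) given 50 µM BMS309403 (n = 4) and from cells kept without it (control, n = 4), and the comparison asks how the compound, a fatty acid-binding protein inhibitor used against FABP5, changes their transcriptome. All 8 libraries are of wild-type C57BL/6 cells labelled as spleen. The protocol names spleen and peripheral lymph nodes, from which total CD4+ cells were selected with magnetic beads, with no sort on Foxp3 described. Both groups were stimulated with plate-bound anti-CD3 (5 µg/mL) and anti-CD28 (0.5 µg/mL) with TGF-β at 5 ng/mL, IL-2 at 100 U/mL and antibodies blocking IL-4, IL-12 and IFN-γ at 10 µg/mL, and were divided at 72 h, when the compound was added to 1 arm. The labels give neither the length of exposure nor a vehicle, so FABP5 inhibition, anything else the compound does and a possible solvent cannot be told apart.

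Each factor is best known for 1 helper programme. Tbx21 encodes T-bet, the master regulator of interferon gamma-producing type 1 cells, and Eomes its T-box relative in cytotoxic and memory cells. Gata3 directs type 2 cells and Rora acts in type 17 cells. Bcl6 is the repressor that defines follicular helper cells, and Prdm1 encodes Blimp-1, which opposes it and marks effector Tregs. Maf promotes IL-10 and IL-21 expression, Batf is a bZIP partner of Jun proteins and IRF4, and Ahr is a ligand-activated receptor of xenobiotics and tryptophan products. Tregs can carry several of these factors beside Foxp3.

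Libraries held 32923433 to 44644485 counts. The Treg label was checked against 10 identity genes, all of which were tested: Foxp3 averaged 1247 ± 15.3 CPM in treated and 950.0 ± 55.6 CPM in control libraries, and Cd4 573 ± 15.7 CPM in treated and 598 ± 43.9 CPM in control libraries (SD, n = 4; CPM, the count scaled to library size). Of the 10, 4 were called higher, among them Foxp3 (log2 fold change 0.39), Ikzf2 (0.83) and Tnfrsf18 (0.66), and 4 lower, among them Nt5e (-0.74) and the CD3 chain gene Cd3e (-0.46). B cell markers summed to between 5.82 and 9.49 CPM in treated and between 7.71 and 10.7 CPM in control libraries, and the CD8 genes to between 10.2 and 14.9 CPM in treated and between 9.89 and 14.3 CPM in control libraries. Of the natural killer markers, Ncr1 and Klra8 had 0 counts in all libraries and Klrb1c had 4 counts in treated and 2 in control libraries. Gzma had 41 counts in treated and 12 in control libraries, Tyrobp 23 and 23, and Klre1 19 and 17. The sum of that list was between 239 and 274 CPM in treated and between 199 and 224 CPM in control libraries, nearly all of it Il18r1. Erythroid genes summed to at most 0.168 CPM in treated and 0.403 CPM in control libraries. The myeloid sum was between 85.4 and 102 CPM in treated and between 25.2 and 39.4 CPM in control libraries. Mpeg1 alone averaged 87.9 CPM in treated and 25.9 CPM in control libraries. Cd68 was at 2.64 CPM in treated and 2.62 CPM in control libraries and Lyz2 at 1.24 and 1.41 CPM, neither called. Csf1r, Cd14, Itgam, Fcgr3, Clec9a and Siglech were each under 0.4 CPM on average in both groups. Adgre1 was lower (0.137 CPM in treated and 0.565 CPM in control libraries).

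Of the 9 factors, 4 were called higher in treated cells (Eomes, Tbx21, Ahr and Batf) and 2 lower (Bcl6 and Prdm1), while Gata3, Maf and Rora were not called. A call is an adjusted p under 0.05 in edgeR's quasi-likelihood test, with p-values adjusted over all 14443 tested genes, all 9 factors among them. By the same rule 18.7% of tested genes were higher and 18.1% lower, so 36.8% were called in either direction, beside 66.7% of these 9. The median size of change was 0.45 on the log2 scale for the factors and 0.17 for all tested genes. The groups did not overlap for 4 factors (Ahr, Batf, Bcl6 and Prdm1), or 44.4%, beside 33.8% of all tested genes. The 2 that were higher (Ahr and Batf) stand beside 17.7%, and the 2 that were lower beside 16.1%. In 6 of the 9 factors all 4 same-numbered pairs moved 1 way (66.7%), beside 59.8% of all tested genes. The test behind these calls took treatment alone and left the replicate number out. With that number as a block in edgeR, Gata3 (adjusted p = 0.00767) and Maf (0.0282) were called lower too. Then 8 of the 9 factors were called, beside 52.4% of all tested genes. In bulk RNA, a shift in how many cells carry a transcript and a shift in its amount per cell cannot be told apart.

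**Figure D1:**
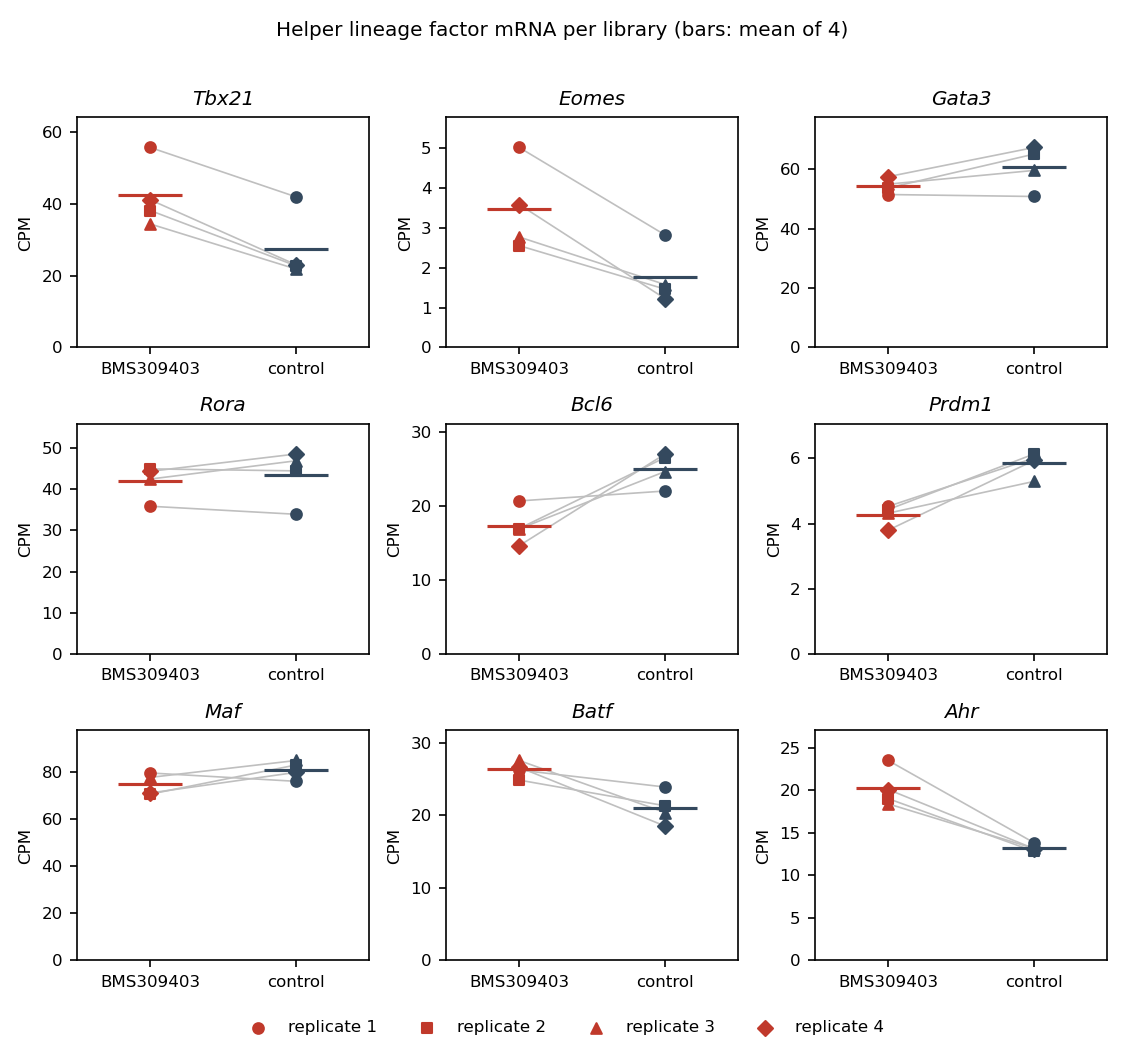
Normalised expression of the 9 factors (CPM, linear axes from 0) in each treated (red, left) and control (dark, right) library; marker shapes give the replicate number, grey lines join libraries of the same number and bars are means of 4. Control replicate 1 stands at 42.0 CPM for Tbx21, beside 21.9 to 23.1 CPM in the other control libraries, and replicate 1 is highest in both groups for Tbx21, Eomes and Ahr.

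The upstream sequences of 4 factors are shown because Tbx21 and Eomes were called higher, and Bcl6 and Prdm1 lower. Each line is the 250 bases before a start site in the RefSeq table (GRCm38.p6), read 5′ to 3′ along the gene; both listed starts are shown for Bcl6. Capitals mark matches, on either strand, to any of 5 motifs: the interferon-stimulated response element shape (GAAA, 2 bases of any kind, GAAA), the STAT palindrome TTCNNNGAA, the AP-1 site TGANTCA, the dioxin response core GCGTG and the CRE core TGACGT. No 2 matches overlap in these windows. The windows of the second Bcl6 start and of Prdm1 lie inside the annotated spans of these genes.
Tbx21 (chr11:97115332-97115581, minus strand): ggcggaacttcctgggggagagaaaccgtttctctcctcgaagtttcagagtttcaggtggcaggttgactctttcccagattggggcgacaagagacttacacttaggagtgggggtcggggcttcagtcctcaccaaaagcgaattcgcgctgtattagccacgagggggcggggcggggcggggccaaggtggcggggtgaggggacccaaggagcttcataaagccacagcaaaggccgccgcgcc
Eomes (chr9:118477939-118478188, plus strand): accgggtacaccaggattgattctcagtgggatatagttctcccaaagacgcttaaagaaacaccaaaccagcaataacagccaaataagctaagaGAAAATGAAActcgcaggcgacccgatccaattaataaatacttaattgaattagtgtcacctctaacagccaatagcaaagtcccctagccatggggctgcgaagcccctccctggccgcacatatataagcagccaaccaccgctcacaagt
Bcl6, first start (chr16:23988853-23989102, minus strand): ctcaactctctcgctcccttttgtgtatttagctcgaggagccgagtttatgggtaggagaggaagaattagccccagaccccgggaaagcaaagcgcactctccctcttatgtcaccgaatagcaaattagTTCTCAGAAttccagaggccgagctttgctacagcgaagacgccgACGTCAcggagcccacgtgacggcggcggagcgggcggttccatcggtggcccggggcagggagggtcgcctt
Bcl6, second start (chr16:23981284-23981533, minus strand): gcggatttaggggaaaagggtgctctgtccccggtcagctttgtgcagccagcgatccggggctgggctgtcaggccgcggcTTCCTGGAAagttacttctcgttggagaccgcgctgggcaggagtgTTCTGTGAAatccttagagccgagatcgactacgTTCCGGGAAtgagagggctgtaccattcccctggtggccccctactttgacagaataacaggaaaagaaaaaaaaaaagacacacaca
Prdm1 (chr10:44458749-44458998, minus strand): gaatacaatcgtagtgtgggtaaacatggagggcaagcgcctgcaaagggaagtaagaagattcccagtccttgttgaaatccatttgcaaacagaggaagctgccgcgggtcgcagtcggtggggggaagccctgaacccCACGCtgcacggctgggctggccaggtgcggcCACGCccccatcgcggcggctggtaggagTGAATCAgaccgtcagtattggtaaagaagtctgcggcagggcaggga
The Tbx21 window holds none of the 5 motifs. The Eomes window holds 1 match to the interferon element shape, 154 to 145 bases before the start, a shape found in 2.98% of 32851 upstream windows of the same length. The window before the first Bcl6 start holds 1 STAT palindrome and 1 CRE core, and that before the second holds 3 STAT palindromes. At least 1 palindrome occurs in 7.02% of windows. Prdm1 has 1 AP-1 match, a site in 6.75% of windows, and 2 dioxin response cores, of which 28.2% of windows hold at least 1. Batf has 1 CRE core (6.47% of windows), Rora 1 dioxin response core and Gata3 no match. Windows were found for 7 of the 9 factors; Maf and Ahr had no entry. A match is a run of letters and was not tested as a binding site.

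Tbx21 (ENSMUSG00000001444, chromosome 11, 97098071 to 97115331, minus strand, GRCm38) was at 55.8, 38.2, 34.4 and 41.2 CPM in treated replicates 1 to 4, against 42.0, 22.8, 21.9 and 23.1 CPM in control replicates 1 to 4. The groups overlapped because control replicate 1 lay above 3 of the 4 treated libraries. Means were 42.4 ± 9.34 CPM in treated and 27.4 ± 9.74 CPM in control libraries (SD, n = 4), a 1.55-fold rise with a log2 fold change of 0.64 (SE 0.20, 95% interval 0.19 to 1.08, edgeR adjusted p = 0.0292). Within same-numbered pairs, Tbx21 was higher in the treated library in 4 of 4, by 1.33-fold in pair 1 and by 1.58-fold to 1.79-fold in the others, and with the replicate number as a block the adjusted p was 1.61e-07. Without that block the call was lost in DESeq2 (adjusted p = 0.0653) and when control replicate 2 (0.0878), 3 (0.0911) or 4 (0.0692) or treated replicate 1 (0.0787) or 4 (0.0529) was left out.

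Eomes (ENSMUSG00000032446, chromosome 9, 118478212 to 118486132, plus strand) was, like Tbx21, highest in replicate 1 of both groups. It was at 5.01, 2.55, 2.77 and 3.58 CPM in treated and at 2.82, 1.46, 1.58 and 1.22 CPM in control replicates 1 to 4. Only control replicate 1 reached into the treated range. The rise was 1.99-fold, with a log2 fold change of 0.99 (SE 0.27, 95% interval 0.41 to 1.58, edgeR adjusted p = 0.0131), and was seen in 4 of 4 pairs. The call held under the 16 alternatives run, with adjusted p between 2.21e-05 and 0.0459. The antisense gene Gm33460 shares 118 exonic bases, 2.84% of the exons of Eomes, and had 66 counts in treated and 23 in control libraries, beside 563 counts of Eomes in treated and 258 in control libraries. The sources used here do not say whether counting was by strand. Eomes is also 1 of 9 natural killer markers, of which 3 were tested (Eomes, Klrk1 and Il18r1) and all 3 were higher. Klrk1 was at 0.993 CPM in treated and 0.608 CPM in control libraries, and its call was lost without control replicate 3 (adjusted p = 0.0508). The part of such cells in the rise of Eomes was not tested.

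The Tbx21 and Eomes values of the libraries numbered 1 stood apart together. Control replicate 1 was 1.86 times the mean of the other control libraries for Tbx21 and 1.99 times for Eomes. Treated replicate 1 was 1.47 times the mean of the other treated libraries for Tbx21 and 1.69 times for Eomes. Replicate 1 was the highest library of both groups for 20.8% of all tested genes, for 3 of the 9 factors (Tbx21, Eomes and Ahr) for 7 of 17 tested genes of the type 1 programme (41.2%) and for 5 of 12 of the type 2 programme (41.7%). With replicate 1 of both groups left out, an alternative chosen after seeing the data, Tbx21 had a log2 fold change of 0.74 and Eomes of 1.06, and both were called. What sets the libraries numbered 1 apart was not tested.

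The type 1 programme, 18 genes known as targets or companions of T-bet, had 9 of 17 tested members higher and 2 lower, with a median log2 fold change of 0.29 beside 0.01 for all tested genes. With the replicate block 11 were higher and 4 lower, beside 26.6% and 25.8% of all tested genes. Without the block 18.7% of all tested genes were higher and 18.1% lower, shares to set beside the counts of each list. Ifng, the signature cytokine, was at 16.5, 7.40, 8.04 and 8.03 CPM in treated and at 8.09, 3.03, 2.86 and 2.84 CPM in control replicates 1 to 4. Replicate 1 was thus the highest of its group again, and Ifng was higher in the treated library of each pair (log2 fold change 1.27, SE 0.35, edgeR adjusted p = 0.0148). Its call was lost without control replicate 2 (adjusted p = 0.0511) or 3 (0.0516). Il12rb2, the inducible chain of the IL-12 receptor, averaged 59.0 ± 4.68 CPM in treated and 25.5 ± 3.97 CPM in control libraries (SD, n = 4), a 2.32-fold rise, and Ly6c2, a surface protein, rose 2.40-fold at low level. Runx3, which acts with T-bet at Ifng, rose 1.58-fold. Cxcr3, a chemokine receptor regarded as a direct T-bet target, moved the other way: it was at 3.54 ± 0.549 CPM in treated and 9.06 ± 0.432 CPM in control libraries, 2.56-fold lower (edgeR adjusted p = 2.22e-06). Prf1, the perforin gene, was not called (log2 fold change -0.36, adjusted p = 0.0975), nor was Gzmb, the granzyme B gene (0.48, adjusted p = 0.185). Both were called with the replicate block (adjusted p = 0.00800 for Prf1 and 0.00133 for Gzmb).

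Gata3 (ENSMUSG00000015619, chromosome 2, 9857078 to 9890034, minus strand) was at 51.4, 53.7, 54.9 and 57.4 CPM in treated and at 50.8, 65.0, 59.5 and 67.3 CPM in control replicates 1 to 4. Control replicate 1 was the lowest of the 8 libraries, while the other control libraries lay above every treated library. The log2 fold change was -0.16 (SE 0.08, 95% interval -0.33 to 0.01) and was not called (edgeR adjusted p = 0.124). With the replicate block Gata3 was called lower (adjusted p = 0.00767), as it was without control replicate 1 (log2 fold change -0.24, adjusted p = 0.00327). Pair 1 did not show the difference (log2 0.02), and the other pairs differed by -0.28, -0.12 and -0.23.

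Genes of the type 2 programme, for which Gata3 is known, were mostly higher: 9 of 12 tested members were called higher and 2 lower (median log2 fold change 0.42). Il9 was at 3.82 ± 0.448 CPM in treated and 0.202 ± 0.0719 CPM in control libraries (SD, n = 4), from 619 summed counts in treated and 30 in control libraries, an 18.8-fold rise. Il24 and Il13, both type 2 cytokine genes, were low. Il24 rose 5.73-fold, to 1.14 ± 0.603 CPM in treated libraries, against 0.212 ± 0.216 CPM in control libraries. Il13 rose 3.94-fold, to 1.81 ± 0.586 CPM in treated libraries, against 0.470 ± 0.273 CPM in control libraries. Replicate 1 was the highest library of both groups for Il24 (2.01 CPM in the treated and 0.527 CPM in the control library) and for Il13 (2.42 CPM in the treated and 0.867 CPM in the control library). The chemokine receptor genes Ccr4 and Ccr8 had log2 fold changes of 0.42 (adjusted p = 0.000375) and 0.28 (adjusted p = 0.000989) at over 100 CPM in each group. Pparg, a nuclear receptor needed by type 2 cells, was 2.89-fold lower, and the IL-33 receptor gene Il1rl1 had a log2 fold change of -0.69 (adjusted p = 0.0224), a call lost without treated replicate 2 (0.0600) or 4 (0.0577) or control replicate 4 (0.0573). Il5 was too low to test, with 7 counts in treated and 4 in control libraries.

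Rora (ENSMUSG00000032238, chromosome 9, 68653786 to 69388246, plus strand) was at 35.8, 44.9, 42.4 and 44.3 CPM in treated and at 33.9, 44.4, 46.9 and 48.5 CPM in control replicates 1 to 4. Replicate 1 was the lowest library of both groups. The log2 fold change was -0.05 (SE 0.10, 95% interval -0.28 to 0.17, edgeR adjusted p = 0.716), with 2 pairs higher and 2 lower, so a change within that interval was not detectable. Of 9 tested type 17 genes 4 were higher and 3 lower (median 0.13). Ccl20, the ligand of CCR6, rose 2.44-fold, Il1r1, an IL-1 receptor chain, 2.39-fold at under 0.5 CPM, and Nfkbiz, a nuclear NF-kB cofactor, 1.35-fold. The cytokine genes Il17a and Il22 had 21 and 2 counts in treated and 8 and 1 in control libraries and were not tested.

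Bcl6 (ENSMUSG00000022508, chromosome 16, 23965052 to 23988852, minus strand) was at 20.7, 16.9, 16.9 and 14.6 CPM in treated and at 22.0, 26.5, 24.6 and 27.0 CPM in control replicates 1 to 4. Every treated library lay below every control library, though the 2 libraries numbered 1 nearly met. Means were 17.3 ± 2.50 CPM in treated and 25.0 ± 2.27 CPM in control libraries (SD, n = 4), 1.45-fold lower, with a log2 fold change of -0.54 (SE 0.10, 95% interval -0.75 to -0.32, edgeR adjusted p = 0.00125). The pairs ranged from -0.89 to -0.09, the smallest difference being that of pair 1. The call held under all 16 alternatives run (adjusted p at most 0.00598).

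Of 14 tested genes of the follicular helper programme 6 were lower and 3 higher, with a median log2 fold change of -0.06. Cxcr5, the receptor that guides cells to follicles, was at 0.941, 1.34, 1.84 and 1.13 CPM in treated and at 4.90, 6.97, 7.38 and 5.94 CPM in control replicates 1 to 4, 4.80-fold lower (log2 fold change -2.26, SE 0.19, edgeR adjusted p = 3.12e-06). Pou2af1, an octamer-factor coactivator, was 2.95-fold lower, Tox2 2.48-fold lower and Pdcd1, the gene of PD-1, 1.85-fold lower at 56.7 ± 5.66 CPM in treated and 105 ± 5.87 CPM in control libraries (SD, n = 4). The rises were those of Cd200 (log2 fold change 0.78), Btla (0.45) and Icos (0.28). Tcf7, Lef1, Tox, Ascl2 and S1pr2 were not called (log2 fold changes between -0.11 and 0.14), though Tcf7 was called lower with the replicate block (adjusted p = 0.0229). Pou2af1 is also a B cell gene, and B cell markers had 2 of 8 members lower (Cd79b and Blk) and 0 higher. Blk passed narrowly (adjusted p = 0.0407) and its call was lost without any 1 of 7 libraries, all but control replicate 1. Their part in the change of Pou2af1 was not tested.

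Prdm1 (ENSMUSG00000038151, chromosome 10, 44437177 to 44528501, minus strand) was at 4.53, 4.43, 4.32 and 3.80 CPM in treated and at 6.01, 6.14, 5.29 and 5.94 CPM in control replicates 1 to 4. The groups did not overlap and were tight, with means of 4.27 ± 0.326 CPM in treated and 5.84 ± 0.376 CPM in control libraries (SD, n = 4). Prdm1 was 1.37-fold lower, with a log2 fold change of -0.45 (SE 0.09, 95% interval -0.66 to -0.25, edgeR adjusted p = 0.00282), and lower in 4 of 4 pairs. All 16 alternatives kept the call.

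Maf (ENSMUSG00000055435, chromosome 8, 115682942 to 115707794, minus strand) was at 79.7, 70.7, 77.8 and 71.2 CPM in treated and at 76.2, 83.1, 85.0 and 80.0 CPM in control replicates 1 to 4. The groups overlapped. Its log2 fold change of -0.12 (SE 0.05, 95% interval -0.23 to 0.00) was not called (edgeR adjusted p = 0.105). It was called lower with the replicate block (adjusted p = 0.0282), so that 4 factors were lower under the block, and without control replicate 1 (adjusted p = 0.0379). Under the block 8 of the 9 factors were called, all but Rora, beside 52.4% of all tested genes. The 4 higher stand beside 26.6% and the 4 lower beside 25.8%.

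Batf (ENSMUSG00000034266, chromosome 12, 85686669 to 85709087, plus strand) was at 26.2, 24.8, 27.5 and 26.6 CPM in treated and at 23.9, 21.3, 20.4 and 18.5 CPM in control replicates 1 to 4. The highest control library lay just under the lowest treated one. The rise was 1.25-fold, with a log2 fold change of 0.33 (SE 0.07, 95% interval 0.17 to 0.48, edgeR adjusted p = 0.0046), and was the smallest of the 6 called changes. It was seen in 4 of 4 pairs, from 0.13 in pair 1 to 0.52 in pair 4 on the log2 scale.

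The effector regulatory list, genes tied to Blimp-1, c-Maf and BATF in Tregs, had 9 of 15 tested members higher and 3 lower (median log2 fold change 0.28). Havcr2, the gene of TIM-3, rose 2.38-fold, to 2.50 CPM in treated against 1.08 CPM in control libraries, and Ebi3, a subunit of IL-35 and IL-27, rose 1.62-fold to 20.4 ± 2.66 CPM in treated libraries, against 12.6 ± 1.48 CPM in control libraries (SD, n = 4). Il10 was 1.76-fold higher at 1.38 CPM (edgeR adjusted p = 0.0292), but not past the threshold without treated replicate 1 (0.0653) or 3 (0.0818) or control replicate 2 (0.0947), 3 (0.0763) or 4 (0.0726). Tigit, an inhibitory receptor, was 1.82-fold lower. Irf4, which binds DNA together with BATF, averaged 820.0 ± 53.1 CPM in treated and 613 ± 53.5 CPM in control libraries, a log2 fold change of 0.42 (adjusted p = 0.000408).

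Ahr (ENSMUSG00000019256, chromosome 12, 35497974 to 35535038, minus strand) was at 23.5, 19.0, 18.4 and 20.1 CPM in treated and at 13.8, 12.8, 13.1 and 13.1 CPM in control replicates 1 to 4, with no overlap. Means were 20.2 ± 2.27 CPM in treated and 13.2 ± 0.424 CPM in control libraries (SD, n = 4), a 1.53-fold rise with a log2 fold change of 0.61 (SE 0.08, 95% interval 0.44 to 0.79, edgeR adjusted p = 9.10e-05). No alternative of the 16 raised its adjusted p above 0.000679.

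Of 10 tested genes of the Ahr battery, 4 were higher and 3 lower (median log2 fold change 0.21). Cyp1a1, the classic target enzyme gene, was at 3.23, 2.76, 1.97 and 2.02 CPM in treated and at 0.558, 0.832, 0.803 and 0.449 CPM in control replicates 1 to 4, without overlap and 3.75-fold higher (edgeR adjusted p = 6.65e-05). Ahrr, the receptor's repressor and itself a target, rose 2.12-fold, to 1.88 CPM in treated against 0.879 CPM in control libraries. Slc7a5, an amino acid transporter gene also placed downstream of other pathways, rose 1.82-fold to 755 ± 30.0 CPM in treated libraries, against 416 ± 19.8 CPM in control libraries. Tiparp, another classic target, went against these with a log2 fold change of -0.47 (adjusted p = 5.37e-05). Arnt, the DNA-binding partner of the receptor, was not called (log2 fold change 0.08, adjusted p = 0.184, and 0.0493 with the replicate block).

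**Figure D2:**
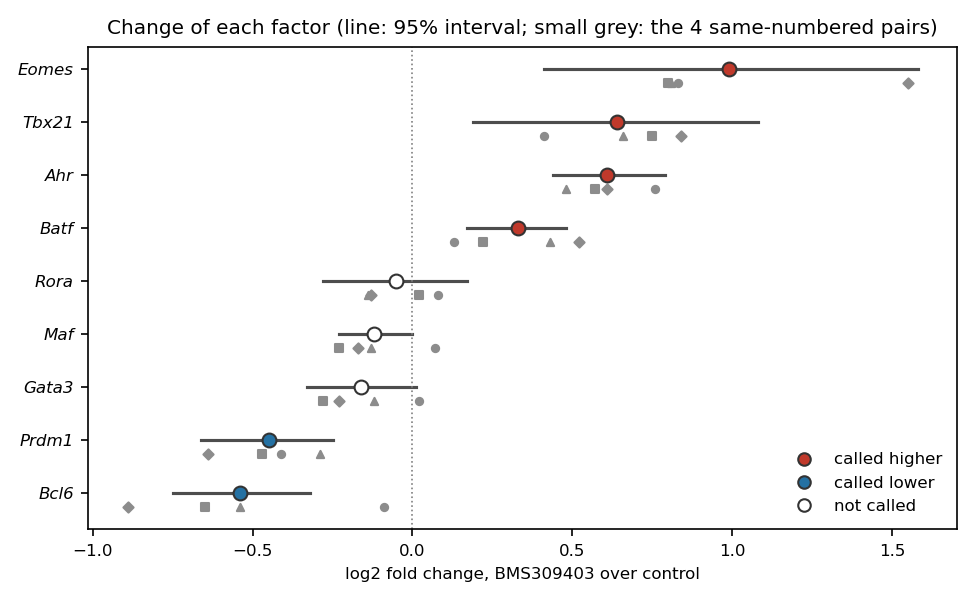
Log2 fold change of each factor, treated over control, with its 95% interval (line); red and blue points were called higher and lower, open points were not called, and the small grey markers beneath are the 4 same-numbered pairs, with circles for pair 1, squares for 2, triangles for 3 and diamonds for 4. Eomes, Tbx21, Ahr and Batf lie above 0 and Bcl6 and Prdm1 below it, in every pair, while Gata3, Maf and Rora each have pairs on both sides.

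Levels of different genes were compared only per length, as CPM per kb of annotated exon. In treated libraries the order ran from Batf (18.7 ± 0.797) and Tbx21 (17.05 ± 3.75) through Gata3 (13.7 ± 0.631) and Maf (9.08 ± 0.556) to Ahr (3.28 ± 0.369), Rora (3.20 ± 0.318), Bcl6 (2.58 ± 0.373), Eomes (0.837 ± 0.268) and Prdm1 (0.765 ± 0.0583). In control libraries Gata3 (15.2 ± 1.85) and Batf (15.0 ± 1.59) stood first, followed by Tbx21 (11.0 ± 3.91), Maf (9.84 ± 0.470), Bcl6 (3.74 ± 0.339), Rora (3.32 ± 0.503), Ahr (2.15 ± 0.0688), Prdm1 (1.05 ± 0.0673) and Eomes (0.426 ± 0.172), all in CPM per kb as mean ± SD of 4 libraries. Neighbours whose library ranges overlapped were Batf with Tbx21, Tbx21 with Gata3, Ahr with Rora, Rora with Bcl6 and Eomes with Prdm1 in treated libraries. In control libraries they were Gata3 with Batf, Batf with Tbx21, Tbx21 with Maf and Bcl6 with Rora. Both genes were measured in the same libraries, which ranges ignore, so overlap does not show that neighbours had equal levels. All isoforms of a gene enter 1 exonic length, so the order depends on that length.

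**Figure D3:**
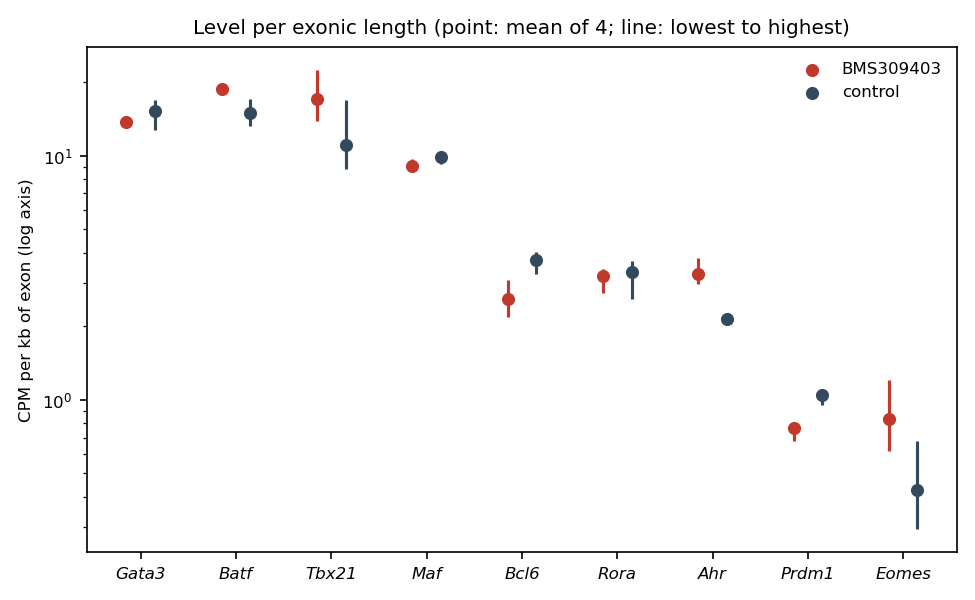
Level of each factor in CPM per kb of exon (log axis) in treated (red, left of each pair) and control (dark, right) libraries, as mean of 4 with a line from the lowest to the highest library. Batf, Tbx21, Gata3 and Maf lie at 9.08 or more in both groups, and Prdm1 and Eomes lie lowest.

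A ratio of 2 factors within a library does not depend on scaling, and 3 such ratios were compared in a two-sided, exact permutation test of all 70 arrangements of the libraries, which cannot give a p below 0.0286. The log2 ratio of Tbx21 to Gata3 counts was 0.12, -0.49, -0.67 and -0.48 in treated and -0.27, -1.51, -1.45 and -1.54 in control replicates 1 to 4. It was higher in 4 of 4 pairs, but control replicate 1 overlapped the treated range, and the mean difference of 0.81 had an exact p of 0.114 (0.171 adjusted over the 3 ratios). Without control replicate 1, the library that overlapped, the difference was 1.12. Its exact p of 0.0286 was the smallest that 3 against 4 libraries allow and was not adjusted over the 3 ratios. Leaving out any other single library gave an exact p between 0.114 and 0.2. Leaving out replicate 1 of both groups, chosen after seeing the data, gave a difference of 0.95. Its exact p of 0.1 was the smallest that 3 against 3 libraries allow. The log2 ratio of Tbx21 to Eomes averaged 3.63 ± 0.19 in treated and 3.96 ± 0.19 in control libraries (SD, n = 4), lower in 4 of 4 pairs (difference -0.33, exact permutation p = 0.0857, adjusted 0.171), so a larger rise of Eomes than of Tbx21 was not shown. The log2 ratio of Prdm1 to Bcl6 averaged -2.01 ± 0.12 in treated and -2.09 ± 0.16 in control libraries (SD, n = 4; difference 0.09, exact permutation p = 0.457, adjusted 0.457), a difference smaller than the spread between libraries. Without replicate 1 of both groups the Prdm1 to Bcl6 difference was 0.22, with an exact p of 0.1, again the smallest allowed. For Tbx21 to Eomes the difference was then -0.30 (exact p = 0.2).

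**Figure D4:**
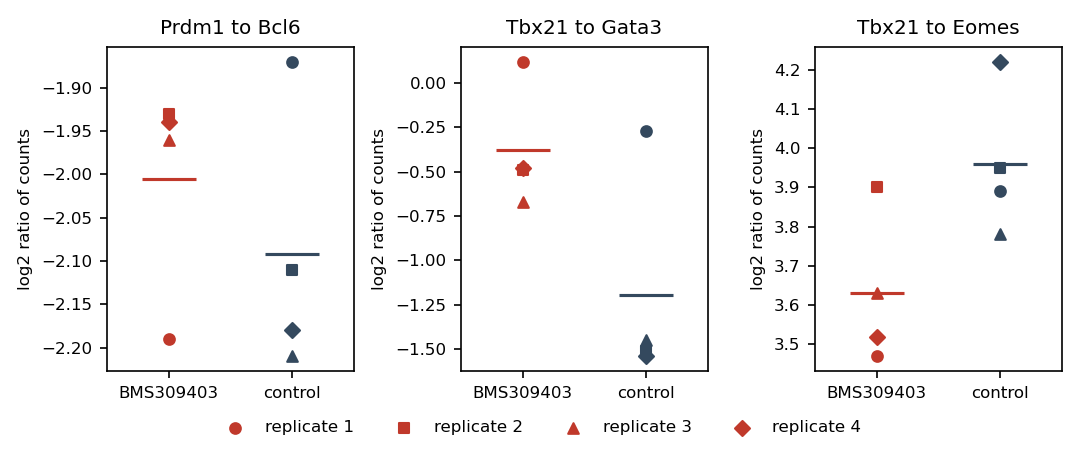
Log2 ratio of counts for 3 pairs of factors in each treated (red, left) and control (dark, right) library, with bars at the mean of 4 and marker shapes for the replicate number. The Tbx21 to Gata3 ratio of control replicate 1 is -0.27, beside -1.54 to -1.45 in the other control libraries, and the groups overlap in all 3 panels.

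Counts over the programmes did not follow a single direction with the factor. The 6 programme lists and the list of relatives and partners held 113 genes other than the factors, of which 93 were tested. Of these, 44 were higher and 21 lower, beside 18.7% and 18.1% of all tested genes. Type 2 genes were mostly higher while Gata3 was not called, and Cxcr3 and Tiparp went against Tbx21 and Ahr. These lists were described by their counts and medians and had no test of their own.

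**Figure D5:**
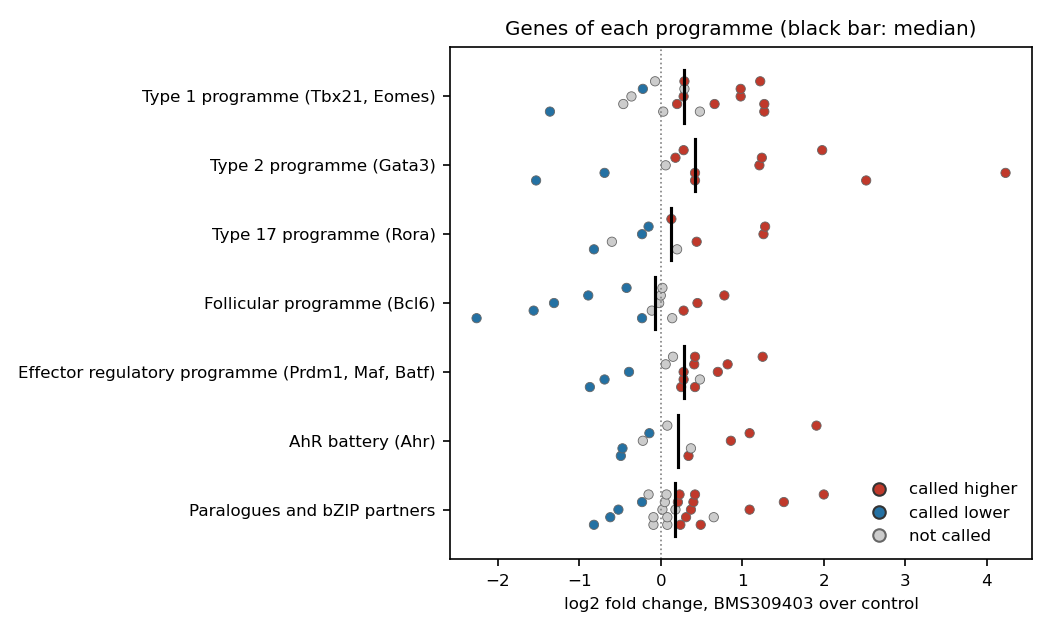
Log2 fold change, treated over control, of each tested gene in 7 lists (rows), red where called higher, blue where called lower and grey where not called, with a black bar at the list's median. Medians run from -0.06 for the follicular list to 0.42 for the type 2 list, and each list has called genes on both sides of 0.

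The genes whose expression was most like that of each factor were sought by Pearson correlation of log2 CPM over the 8 libraries among other genes averaging at least 10 CPM. The libraries share their groups and replicate numbers, so the values are a description. Mrpl37 and Kat14 followed Tbx21 (r = 0.996 and 0.993), with far smaller amplitude (log2 fold changes 0.13 and 0.11, neither called). Eomes was followed by Ubtf and Zfp24 (both r = 0.984), Gata3 by Nbr1 and Kctd2 (0.993 and 0.984) and Rora by Phf21a and Ifngr2 (0.992 and 0.981). For Bcl6 they were Alkbh5 and Elk1 (0.985 and 0.980), for Prdm1 Entpd5 and Slc11a2 (0.993 and 0.985), for Maf Snapc2 and Mex3d (0.972 and 0.945), for Batf Ggps1 and Gsto1 (0.990 and 0.989) and for Ahr Gng12 and Trp53bp2 (0.986 and 0.985). Gng12 rose with a log2 fold change of 0.42 (edgeR adjusted p = 0.000118).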

How the data were processed

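Libraries were stranded, poly(A)-selected and sequenced on an Illumina instrument, per the labels' protocols. The deposited values are raw counts per Ensembl gene; per the submitters' processing notes, the authors used STAR, featureCounts, DESeq2 and deepTools on GRCm38, with versions, strand use and annotation release not given in the sources used here. GENCODE M21 named 53360 of 53465 IDs; the rest held 0.0063% of counts. All 9 factors matched 1 ID each.

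Genes were tested with edgeR 4.0.16 (R 4.3.3): filterByExpr, TMM, quasi-likelihood F-test on treatment alone, Benjamini-Hochberg adjustment over 14443 genes. Intervals of 95% use the test's 11.8 degrees of freedom. CPM uses TMM-adjusted library sizes; means carry the SD of 4 libraries. Ratios used counts plus 0.5. Alternatives were RLE factors, library size only, no filter, a mean of at least 1 CPM, DESeq2 1.42.0, limma-voom 3.58.1, a replicate block and leaving out libraries. The code was tested on simulated data.

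Same-numbered libraries deviated together (correlations across genes of 0.384, 0.145, 0.106 and 0.264 for numbers 1 to 4, all over 0.1). The numbers were therefore used as pairs and as the replicate block. The main test, its SE and intervals and the exact test of ratios over 70 arrangements did not use them. The pairing rests on the data, not the labels, and treated replicate 2 correlated best with control replicate 4 (0.208). Replicates differed by more than sampling noise (chi-square per degree of freedom 3.08 to 24.2). Whether replicates came from separate animals or wells is not given in the labels; p-values then measure only how these samples vary, a spread that may be technical.

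The factors and the 13 gene lists were chosen with earlier results of these data known. Named genes are the 9 factors, the 4 called genes of each list that changed most (all, where fewer), other list genes with their values, and 2 genes per factor by likeness; a few list genes are counted but not reported here by name. Upstream sequences come from RefSeq (GRCm38.p6). Reads shared between near-identical or overlapping genes could not be resolved. The exact test of 4 against 4 libraries has a smallest p of 0.0286.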

Additional observations from a re-analysis of the deposited data

Results flagged for a closer look

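In 24 groups of 4 libraries (9 factors and 3 ratios, treated and control), 3 had a library far from the others, where chance gives about 1 in 20. For Tbx21, control replicate 1 was at 42.0 CPM, and its gap to the next control library was 0.941 of the range. For the Tbx21 to Gata3 log2 ratio, control replicate 1 was at -0.27, again far above the other control libraries. The ratios are built from the same counts as the factors, so the 24 groups are not independent and these flags share 1 Tbx21 value. For the Prdm1 to Bcl6 log2 ratio, treated replicate 1 was at -2.19, below the other treated libraries, which lay between -1.96 and -1.93. All 3 are libraries numbered 1.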

How the results depend on the processing

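The directions and calls of Ahr, Batf, Bcl6, Eomes and Prdm1 were the same under all 16 alternatives. Tbx21 kept its direction but passed no longer with DESeq2 (log2 fold change 0.62). Its log2 fold change lay between 0.47 and 0.91 with 1 library left out, losing its call in 5 of those 8 fits. Gata3 and Maf passed as lower with the replicate block (-0.16 and -0.12) and without replicate 1 of both groups (-0.22 and -0.18), and with 1 library left out ranged from -0.24 to -0.11 and from -0.15 to -0.09. Rora ranged from -0.15 to 0.01 with 1 library left out. It was not called in any fit, and its sign turned without control replicate 4 (0.00 after rounding) and without treated replicate 1 (0.01). The number of factors called lower was 2, and 4 with the replicate block and without replicate 1 of both groups; with 1 library left out it lay between 2 and 4, reaching 4 without control replicate 1, and the number called higher between 3 and 4. The Tbx21 to Gata3 difference lay between 0.65 and 1.12 with 1 library left out; pairing the libraries, with the replicate block, gave p = 0.125 by an exact permutation of signs, the smallest it allows. The replicate block changed no other call among the factors. The counts of all genes called higher (2694) and lower (2617) became 3845 and 3728 with the replicate block, and 2614 and 2772 with DESeq2. No scaling moved the median of all genes past 0.026 on the log2 scale. Leaving out libraries lowers the residual degrees of freedom, though without control replicate 1 more genes were called (2939 higher and 2779 lower). The cause of these shifts was not tested. Eomes and Prdm1 rest on the fewest counts (49 to 197 and 158 to 273 per library). The SE of the log2 fold change was 0.27 for Eomes but 0.09 for Prdm1, beside 0.20 for Tbx21.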

Other observations

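Among relatives and DNA-binding partners of the factors, 11 of 25 tested genes were higher and 4 lower, beside 18.7% and 18.1% of all tested genes. Batf3, a BATF relative best known in dendritic cells, was at 4.12 ± 0.749 CPM in treated and 1.04 ± 0.210 CPM in control libraries (SD, n = 4), 3.99-fold higher (edgeR adjusted p = 5.47e-06). Batf2 rose 2.85-fold, with 134 summed counts in treated and 43 in control libraries. Junb, a Jun partner of BATF, averaged 700.4 ± 30.6 CPM in treated and 530.2 ± 31.1 CPM in control libraries, a log2 fold change of 0.40, while Jun (0.05, adjusted p = 0.418) and Jund (0.08, adjusted p = 0.253) were not called. Prdm2, Prdm4, Prdm11 and Prdm15 were each called higher while Prdm1 was lower, with log2 fold changes from 0.21 for Prdm15 to 0.49 for Prdm11; Prdm10 was not called. The call of Prdm15 was lost in 5 of the 8 fits that left out 1 library. Of the small Maf genes Mafk was called higher (0.24), a call lost without control replicate 2 (adjusted p = 0.0619), while Mafg (0.07) and Maff (-0.09) were not called. Zbtb32, a BCL6-related zinc finger gene, had a log2 fold change of -0.52 (adjusted p = 9.36e-06), and Bcl6b of -0.62 (adjusted p = 0.00749). Of the T-box genes other than Tbx21 and Eomes, Tbx6 was tested and not called (-0.15, adjusted p = 0.587). Gata1 was at 34.3 ± 2.01 CPM in treated and 30.3 ± 4.23 CPM in control libraries and was called only with the replicate block (adjusted p = 0.00298, otherwise 0.112), without control replicate 1 (0.00174) or without replicate 1 of both groups (0.00251), in libraries whose erythroid markers summed to under 1 CPM.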
